A study of Mus musculus with 36 samples.

Results

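The ventricular transcriptome of CUG960 mice was compared between animals whose CUG repeat RNA had been turned off and animals in which it was kept on. Members were chosen by their labels, with earlier results of these data known. They are the 3 left ventricle libraries of the on/off dox cohort (+/–dox) and the 3 of the on dox cohort (+dox), which are 6 of the 36 libraries of the series. All mice carried 2 transgenes, written in the labels as TREDT960I (Hom) and MHCrtTA (Hem). The first holds interrupted CTG repeats in the human DMPK gene behind a tetracycline-responsive promoter. The second makes the reverse tetracycline transactivator from the α-myosin heavy chain promoter, so that the repeat RNA is induced in cardiomyocytes and only while doxycycline (dox) is given. The +dox mice ate dox chow from postnatal day 1 until tissue was taken at 21 weeks. The +/–dox mice had the same start but returned to normal chow at 9 weeks and were sampled at the same age, 12 weeks after withdrawal. Another cohort with the same transgenes that never received dox (–dox, 3 ventricle libraries) and the atria of the +dox and +/–dox cohorts were used for reference.

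In myotonic dystrophy type 1, RNA with expanded CUG repeats from the DMPK gene gathers in nuclear foci and binds the muscleblind-like (MBNL) splicing regulators, while CELF1, a regulator with opposing activity, is raised. The heart disease of these patients is marked by conduction delay and arrhythmia. Adult ventricular muscle normally draws most of its ATP from fatty acid oxidation, and its excitation rests on sodium, calcium and potassium channels whose calcium signal is amplified by the ryanodine receptor. Cardiomyocytes of the adult mouse rarely divide.

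The cohorts differed in dox itself as well as in repeat RNA until sampling, and no library used here came from a dox-fed mouse without the transgenes, so the effects of the drug and of the RNA cannot be told apart. In bulk tissue, fewer cells of a type and less RNA per cell cannot be told apart either. The human transgene is not among the gene symbols of the files, and the mouse gene Dmpk was not called (log2 fold change 0.03 ± 0.09 (SE), adjusted p = 0.834, edgeR), so the labels could not be checked on the induced RNA. Replicate 3 of either cohort came from a female by its transcripts (Xist above Ddx3y in 1 of 3 libraries of each) and belonged to a second series of library numbers, so sex and library series were balanced between the cohorts and cannot be told apart from each other. Library totals were 61820592 to 75951567 expected counts in +/–dox and 69520230 to 97091184 in +dox. Ventricular identity was clear in all 6 libraries: 4 ventricular marker genes, led by Myl2, summed to 10709.6 to 12490.5 CPM (counts per 1000000 scaled library counts), and 6 atrial markers to 88.2 to 394 CPM.

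Turning the repeats off was accompanied by a broad shift of the ventricular transcriptome, with 594 genes higher and 676 lower in +/–dox than in +dox. Rises without overlap between the cohorts included the neurotrophic factor gene Cdnf, the coenzyme Q biosynthesis gene Coq8a, the pyruvate dehydrogenase kinase gene Pdk4 and the silent potassium channel subunit gene Kcnv2. Falls without overlap included Rimkla, which encodes a synthetase of the neuropeptide N-acetylaspartylglutamate, the growth factor binding protein-like gene Igfbpl1. Of the DNA replication genes 14 of 32 were called lower and none higher. Of the genes of fatty acid use 11 of 49 were called higher and none lower, and of the sodium channel genes 4 of 14 higher and none lower. A gene was called where edgeR's quasi-likelihood test, fitted across all 36 libraries and 19231 expressed genes, gave an adjusted p (Benjamini-Hochberg) under 0.05 and the levels differed by 1.5-fold or more. The 1270 called genes are 6.6% of those tested, with 3.09% called higher and 3.52% called lower, and the median log2 fold change of all tested genes was 0.001.

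Called falls were larger in size than called rises. The median size of a called change was 1.00 on the log2 scale for lower genes and 0.81 for higher genes, and 124 genes fell while 56 rose by 4-fold or more. The share of called genes varied with their level: 3.90% of the 6147 genes under 1 CPM were called, against 12.2% of the 4523 genes at 1 to 10 CPM and 5.62% of the 6996 at 10 to 100 CPM. Among the 1565 genes at 100 CPM or more, 57 were called higher and 30 lower, whereas at 1 to 10 CPM 235 rose and 315 fell. In 1181 of the 1270 called genes the values of the 2 cohorts did not overlap, which 38% of all tested genes also showed. The plot of fold change against level shows both tails.

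**Figure D1:**
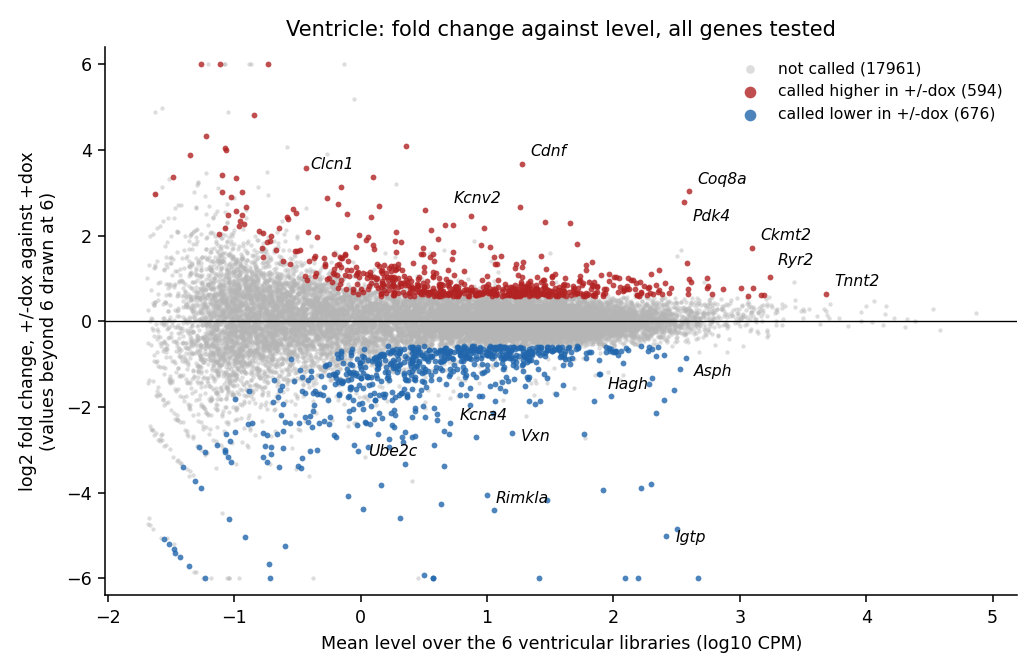
Log2 fold change in +/–dox against +dox ventricle (vertical axis) against the mean level over the 6 libraries in log10 CPM (horizontal axis), 1 point per tested gene, with called genes in red (higher) and blue (lower). Called genes spread over the whole range of levels, and Coq8a, Pdk4, Ckmt2 and Ryr2 stand out among abundant genes that rose.

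The gene with the largest rise among those at 2 CPM or more was Cdnf, the cerebral dopamine neurotrophic factor that resides in the endoplasmic reticulum (GRCm38 chr2:3513030-3526376, plus strand). Its level was 2.76, 2.51 and 2.99 CPM in the 3 +dox libraries and 36.5, 37.4 and 32.4 CPM in the 3 +/–dox libraries. The cohorts lay far apart, with a 12.9-fold rise (log2 fold change 3.69 ± 0.24 (SE), adjusted p = 1.50e-11, edgeR). Coq8a, an atypical kinase needed for coenzyme Q synthesis in mitochondria (chr1:180165238-180199602, minus strand), was far more abundant and went from 112, 82.3 and 65.2 CPM to 745, 727 and 655 CPM. It rose 8.2-fold (log2 fold change 3.04 ± 0.19, adjusted p = 8.79e-12). The mitochondrial creatine kinase gene Ckmt2, which couples ATP made in mitochondria to phosphocreatine (chr13:91853387-91876885, minus strand), had tightly grouped values: 594, 560.4 and 595 CPM in +dox and 1922, 1935 and 1902 CPM in +/–dox. Its rise was 3.29-fold (log2 fold change 1.72 ± 0.12, adjusted p = 4.72e-12), and per length it went from 519 ± 41.8 to 1689 ± 61.6 TPM (transcripts per 1000000, mean ± SD, n = 3).

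Other strong rises were less even between mice. Pdk4, which inhibits the pyruvate dehydrogenase complex, was at 101, 122 and 54.1 CPM in +dox and at 727, 941 and 244 CPM in +/–dox, where replicate 3 was well below the other two but above every +dox library (log2 fold change 2.79 ± 0.51, adjusted p = 3.67e-04). The uncoupling protein gene Ucp3 followed the same order, with 7.24, 14 and 7.38 CPM against 55.9, 71.2 and 17.4 CPM. Angptl4, an inhibitor of lipoprotein lipase, was at 2.42, 3.81 and 0.522 CPM and 11.5, 19.8 and 6.63 CPM. These changes were 2.33 ± 0.52 (adjusted p = 0.00210) and 2.47 ± 0.72 (adjusted p = 0.0155) on the log2 scale. The remaining genes among the 12 largest rises were Kcnv2, Mfsd4b1, Mybpc2, Acot1, Pfkfb1, Sbk2 and Sbk3, with log2 fold changes from 2.13 to 2.68. Sbk2 and Sbk3 encode related serine/threonine kinases, and Sbk2 rose from 3.16, 4.18 and 2.87 CPM to 18.8, 14.1 and 13.7 CPM.

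Among falls, Rimkla (chr4:119465283-119492628, minus strand) dropped from 17.2, 17.9 and 22.0 CPM to 1.05, 0.926 and 1.43 CPM (log2 fold change -4.06 ± 0.26, adjusted p = 4.72e-12). The smallest adjusted p of all tested genes belonged to Vxn, vexin, which is known from neuronal differentiation (chr1:9601199-9627143, plus strand). It was at 26.6, 25.7 and 28.3 CPM in +dox and 5.07, 3.91 and 4.21 CPM in +/–dox (log2 fold change -2.61 ± 0.13, adjusted p = 2.33e-15). Igfbpl1 went from 7.46, 9.74 and 7.98 CPM to 0.835, 0.624 and 0.942 CPM (log2 fold change -3.38 ± 0.25). Cubn, the endocytic receptor cubilin, was at 14.6, 19.8 and 8.15 CPM and 2.25, 2.15 and 2.13 CPM, and the presynaptic scaffold gene Erc2 at 8.71, 8.57 and 6.29 CPM and 1.58, 1.29 and 1.14 CPM. In each of these genes the lowest +dox library stayed above the highest +/–dox library.

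Several broadly expressed genes also changed with small errors. Necap2, an endocytosis factor, fell from 38.8, 40.7 and 35.4 CPM to 10.3, 9.66 and 10.1 CPM (log2 fold change -1.93 ± 0.14). Nudt5, an ADP-sugar hydrolase, fell from 30.1, 28.8 and 30.3 CPM to 9.23, 9.70 and 12.3 CPM, and Hagh, a glyoxalase, from 104, 119.6 and 106 CPM to 47.3, 46.9 and 47.4 CPM. The actin-severing factor gene Dstn was at 364, 359.5 and 346 CPM and 78.1, 81.6 and 84.0 CPM (log2 fold change -2.13 ± 0.15, adjusted p = 2.68e-11). Acyl-CoA thioesterase Acot7 rose from 23.2, 23.5 and 21.7 CPM to 81.7, 77.9 and 79.9 CPM (log2 fold change 1.81 ± 0.13). The other called genes among the 10 with the highest mean TPM were Tnnt2, Des, Tcap, Gsn, Crip2 and Ndufs7, which were higher, and B2m, Lgals1 and Gm28439, which were lower. Tnnt2, Des and Ndufs7 sat near the fold cutoff and were not called without +dox replicate 3, and B2m, Gsn and Lgals1 were each lost without at least 1 library. Gm28439 is a predicted gene whose annotation could share reads with near-identical copies, so its level is uncertain.

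**Figure D2:**
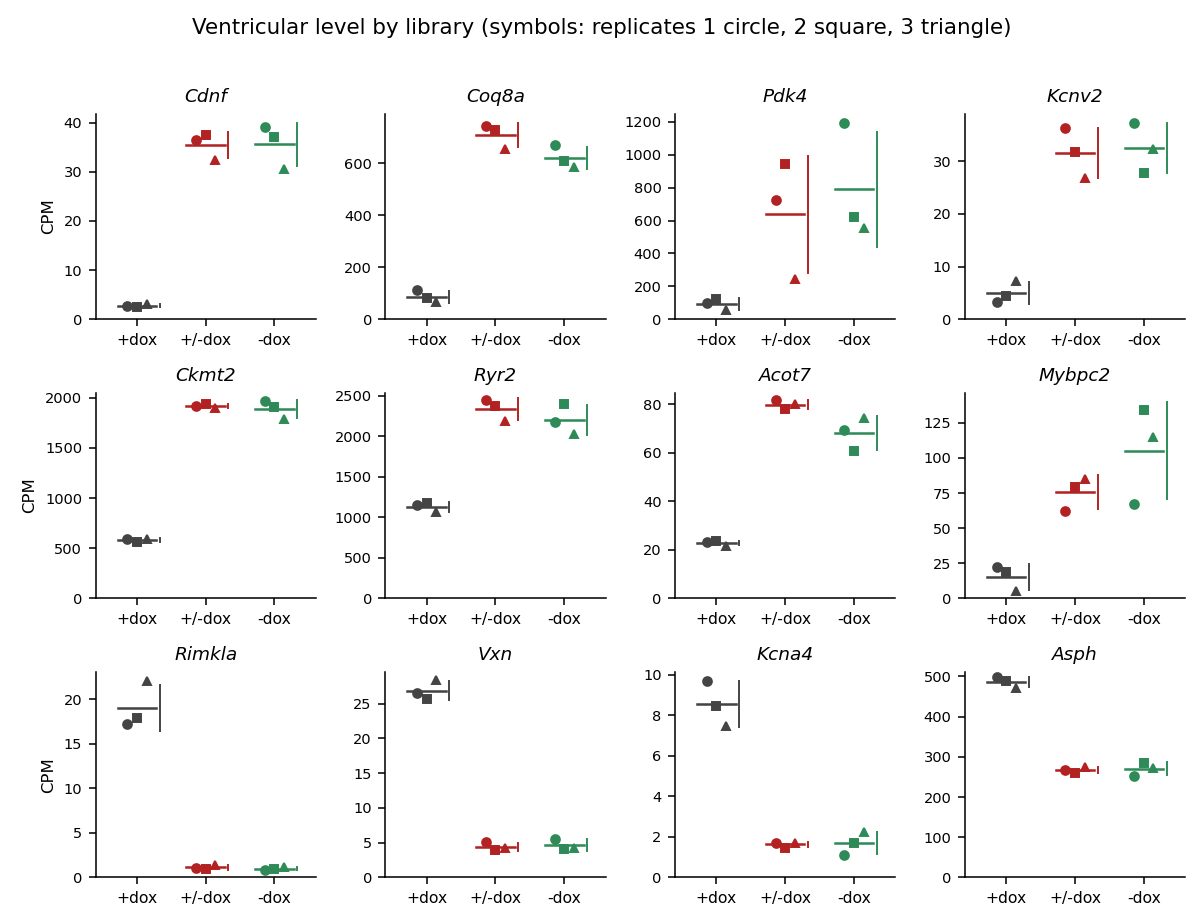
Level in CPM (vertical axes, each starting at 0) of 12 genes in the 3 ventricular libraries of the +dox, +/–dox and –dox cohorts (circles, squares and triangles for replicates 1, 2 and 3), with horizontal bars for means and vertical bars for SD (n = 3). The +dox libraries lie apart from both other cohorts in every panel, with Cdnf at 2.51 to 2.99 CPM in +dox and 32.4 to 37.4 CPM in +/–dox.

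The MBNL genes themselves moved little. Mbnl1 was at 218, 206 and 224 CPM in +dox and 175, 178 and 176 CPM in +/–dox (log2 fold change -0.29 ± 0.09, adjusted p = 0.0143). Mbnl2 was at 358, 352 and 375 CPM and 264, 263 and 249 CPM (log2 fold change -0.48 ± 0.09, adjusted p = 2.56e-04). The adjusted p of both was below the threshold but the change stayed under the fold cutoff, so neither was called. Mbnl3 was near 0.406 CPM in +dox and was not called (adjusted p = 0.651). Of 26 tested genes in a list of MBNL, CELF, RBFOX and other muscle splicing regulators, 1 was called higher and 0 lower. This is 3.85%, beside 6.6% of all tested genes, and the median log2 fold change was 0.01. The called gene was Rbfox1, a regulator of muscle and neuronal exons, at 9.07, 12.0 and 16.2 CPM and 28.3, 27.5 and 20.9 CPM (log2 fold change 1.05 ± 0.19, adjusted p = 2.38e-04). None of 31 SR protein and hnRNP genes was called by edgeR (6 at an unadjusted p below 0.05, 0 called by DESeq2), although 2 higher and 2 lower members had an adjusted p below the threshold. Gene-level counts do not resolve the exons these factors regulate.

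Genes of excitation were examined because the model is studied for slowed conduction. Of 14 tested voltage-gated sodium channel and partner genes, 4 were called higher and 0 lower (28.6%, beside 6.6% of all tested genes). The median log2 fold change was 0.29. Scn10a (Nav1.8), known from sensory neurons, was called higher at low levels, from 0.671, 0.587 and 1.6 CPM in +dox to 2.19, 2.68 and 3.80 CPM in +/–dox without overlap (log2 fold change 1.63 ± 0.32, adjusted p = 5.11e-04). Scn4a, the skeletal muscle channel, went from 34.6, 41.5 and 36.4 CPM to 73.7, 66.0 and 41.7 CPM with a margin near the threshold (adjusted p = 0.0456, not called without any one of 5 of the 6 libraries). Its cohorts did not overlap either, though +/–dox replicate 3 lay next to the highest +dox library.

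Potassium channel genes moved both ways. Of 48 tested, 6 were called higher and 2 lower (16.7%, beside 6.6% of all tested genes), with a median of 0.19. Kcna4, which encodes the slow transient outward channel Kv1.4 (chr2:107290639-107298502, plus strand), fell from 9.71, 8.45 and 7.46 CPM to 1.72, 1.47 and 1.71 CPM (log2 fold change -2.39 ± 0.18, adjusted p = 4.58e-11). Kcnip2, the auxiliary subunit of the fast transient outward channel, rose from 32.3, 34.1 and 53.6 CPM to 74.5, 72.9 and 76.2 CPM (log2 fold change 0.90 ± 0.19). Kcnv2, an electrically silent subunit that modifies other channels, rose from 3.24, 4.41 and 7.23 CPM to 36.3, 31.8 and 26.8 CPM (log2 fold change 2.68 ± 0.26, adjusted p = 4.46e-08). The cohorts lay apart in all 3 of these genes. The KCNQ1 partner gene Kcne1 was low throughout, at 1.42, 1.81 and 0.722 CPM and 0.243, 0.208 and 0.471 CPM, and was called lower (adjusted p = 0.0120). The stretch-activated channel gene Kcnk2, the channel gene Kcna7 and the sulfonylurea receptor gene Abcc8 were called higher, with log2 fold changes of 0.76, 0.73 and 0.69. Without +/–dox replicate 1 or replicate 2, 5 potassium channel genes were called.

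Conduction and pacemaker genes gave no call in a short list, beside 6.6% called among all tested genes. In a list of 20 genes, none was called in either direction by edgeR (3 at an unadjusted p below 0.05, 0 called by DESeq2), 1 higher and 1 lower member passed the adjusted p without the fold, and the median was 0.03 (-0.08 without +/–dox replicate 3). Gja5, a connexin gene of the conduction system, was at 4.25, 4.55 and 4.7 CPM and 4.48, 4.27 and 7.29 CPM (adjusted p = 0.473). The pacemaker channel gene Hcn4 was at 37.3, 36.5 and 9.17 CPM in +dox, where replicate 3 was far below the other two, and at 9.31, 18.2 and 18.5 CPM in +/–dox, so the cohorts overlapped (adjusted p = 0.271). The same +dox replicate was lowest for the summed atrial markers (283, 278 and 88.2 CPM in +dox and 394, 222 and 242 CPM in +/–dox). The part of dissection in these values was not tested.

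Calcium handling genes moved in both directions. Of 34 genes, 2 were called higher and 2 lower (11.8%, beside 6.6% of all tested genes), and the median was -0.07. Without the fold cutoff, 8 higher and 9 lower members passed the adjusted p, against 10.6% and 11.1% of all tested genes. Ryr2, the cardiac ryanodine receptor that releases calcium from the sarcoplasmic reticulum (chr13:11553102-12106945, minus strand), rose from 1154, 1174 and 1059.8 CPM to 2443, 2369 and 2182 CPM (log2 fold change 1.05 ± 0.07, adjusted p = 4.72e-12). Asph, the locus of the luminal proteins junctin and aspartyl hydroxylase (chr4:9448069-9669344, minus strand), fell from 498, 488 and 472 CPM to 267, 259 and 274 CPM (log2 fold change -0.86 ± 0.09, adjusted p = 1.74e-08). The calcium pump gene Atp2a2 (SERCA2) was at 11518, 12344 and 13868 CPM and 16446, 16859 and 14978 CPM, with no overlap but a change under the fold cutoff (log2 fold change 0.36 ± 0.08), while its inhibitor gene Pln was not called (adjusted p = 0.718). Among 23 calcium channel and calmodulin pathway genes, the main L-type channel gene Cacna1c was called higher (306, 311 and 290.2 CPM and 448, 511 and 458 CPM, adjusted p = 1.77e-07). Cacna1d, the L-type channel gene of pacemaker tissue, was called lower (6.79, 8.06 and 9.55 CPM and 5.54, 3.69 and 3.57 CPM, adjusted p = 1.98e-05).

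Contractile genes were called in both directions, a share of 11.8% of thick filament, 21.4% of thin filament and 16.7% of Z-disc genes beside 6.6% of all tested genes, with small numbers behind each: 1 higher and 1 lower of 17 thick filament genes (median 0.20, and -0.14 without +dox replicate 3), and 2 higher and 1 lower of 14 thin filament genes (median 0.15). The main ventricular myosin gene Myh6 and the giant filament gene Ttn were not called, with log2 fold changes of 0.28 and 0.21. Cardiac troponin T, Tnnt2, an abundant thin filament gene, was called higher, at 3822, 4074 and 3459.7 CPM in +dox and 6045, 6049.8 and 5547 CPM in +/–dox (log2 fold change 0.64 ± 0.09, adjusted p = 9.63e-06). In the Z-disc list 4 of 24 genes were called higher and 0 lower: Des (desmin), Tcap (telethonin), Myot (myotilin) and Pdlim7, with log2 fold changes of 0.61, 0.79, 0.74 and 1.38. Without +dox replicate 3, 2 Z-disc genes were called higher and 2 lower, and the median went from 0.10 to -0.007. The myosin gene Myh7b rose from 31.3, 42.7 and 30.4 CPM to 76.8, 89.8 and 94.9 CPM. The M-band gene Myom3 fell from 17.1, 11.8 and 7.57 CPM to 6.15, 7.20 and 4.84 CPM, and beta-tropomyosin, Tpm2, was at 79.6, 75.1 and 27.5 CPM and 32.0, 32.9 and 36.2 CPM, where +dox replicate 3 lay below the +/–dox range. Without +dox replicate 1, 1 thin filament gene was called. Of thick filament genes 4 were called without +dox replicate 2 and 1 without +dox replicate 3. As a share of all TPM, thick and thin filament genes made up 6.25 ± 0.323% in +dox and 6.62 ± 0.322% in +/–dox (SD, n = 3 each, exact two-sided permutation p = 0.3, smallest possible p = 0.1). Of 16 hypertrophy markers 1, Des, was called higher and none lower (6.25%, beside 6.6% of all tested genes), with a median of 0.14. Without +dox replicate 3 or +/–dox replicate 3 0 and 0 were called by edgeR, and the median was -0.17 without +dox replicate 3 and -0.004 without +/–dox replicate 1.

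A few genes typical of fast skeletal muscle were higher after withdrawal. Of 19 tested, 3 were called higher and 0 lower (15.8%, beside 6.6% of all tested genes). The median was 0.21, and 0.03 without +dox replicate 3. Log2 fold changes were positive in 12 members and negative in 7. Fast myosin-binding protein C, Mybpc2, rose from 22.2, 18.4 and 5.11 CPM to 62.3, 79.6 and 85.2 CPM (log2 fold change 2.30 ± 0.37, adjusted p = 7.58e-05). The chloride channel gene Clcn1, whose missplicing causes myotonia in skeletal muscle in this disease, stayed a low transcript but rose from 0.273, 0.203 and 0.169 CPM to 1.96, 2.65 and 2.26 CPM (log2 fold change 3.38 ± 0.27, adjusted p = 1.89e-10). Atp2a1 (SERCA1) rose from 0.307, 0.418 and 0.399 CPM to 0.972, 0.888 and 0.747 CPM. By contrast Casq1, skeletal calsequestrin, overlapped between the cohorts, at 211, 148 and 27.6 CPM and 125, 162 and 159 CPM.

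Genes of fatty acid use were more often higher than lower. Of 49 genes of fatty acid uptake, storage and oxidation, 11 were called higher and 0 lower (22.4%, beside 6.6% of all tested genes). A positive log2 fold change was seen in 44, and the median was 0.34, beside 0.001 for all genes. Without the fold cutoff, 25 higher and 3 lower members passed the adjusted p, against 10.6% and 11.1% of all tested genes. Called members spanned several steps and included the acyl-CoA thioesterases Acot1 and Acot2, the lipid droplet proteins Plin4 and Plin5, the triglyceride lipase Pnpla2, the transporter Slc27a1, the oxidation enzyme Acad11, and malonyl-CoA decarboxylase Mlycd. Acot1 rose from 0.955, 1.98 and 1.90 CPM to 9.20, 8.45 and 5.33 CPM, and Plin5 from 51.1, 63.2 and 39.9 CPM to 129, 113 and 85.8 CPM. The beta-oxidation gene Hadhb, far more abundant, was at 1234, 1345 and 1407 CPM and 2024, 1937 and 1739 CPM, with no overlap but a change under the fold cutoff (log2 fold change 0.52 ± 0.10, adjusted p = 4.43e-04).

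Genes of glucose use moved less. Of 40 genes, 4 were called higher and 1 lower (12.5%, beside 6.6% of all tested genes), with a median of 0.11. The insulin-responsive transporter Slc2a4 (GLUT4) rose from 284, 299 and 286 CPM to 469, 498 and 492 CPM (log2 fold change 0.75 ± 0.09, adjusted p = 1.90e-07). Pfkfb1, which makes and removes a regulator of glycolysis, rose from 1.39, 2.08 and 2.16 CPM to 12.2, 9.96 and 4.58 CPM. In the pyruvate dehydrogenase list only Pdk4 was called higher and only Pdk3 lower of 14 genes (Pdk3 not without +/–dox replicate 1), and the catalytic subunit Pdha1 was at 1144, 1204 and 1330 CPM and 1359, 1359.8 and 1294 CPM.

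Citric acid cycle and respiratory chain genes were more often higher than lower, nearly all by less than the fold cutoff, while mitochondrial ribosomal protein genes went both ways. No citric acid cycle gene of 18 was called by edgeR (15 at an unadjusted p below 0.05, 0 called by DESeq2), yet 11 higher and 0 lower members passed the adjusted p without the fold cutoff, and the median was 0.26. Of 82 nuclear respiratory chain genes, 1 was called, Ndufs7 of complex I (192, 208 and 172 CPM and 301, 287 and 306 CPM, not called without +dox replicate 3), and 22 higher and 2 lower members passed the adjusted p alone, with a median of 0.09. The 13 protein genes of mitochondrial DNA took 29.5 ± 1.65% of TPM in +dox and 28.2 ± 1.81% in +/–dox (SD, n = 3 each, exact permutation p = 0.5), a difference whose sign turned when shares of counts were used. Neither the 78 mitochondrial ribosomal protein genes (0 called by edgeR, 30 at an unadjusted p below 0.05, 0 called by DESeq2, 11 higher and 14 lower by adjusted p alone, median -0.03) nor the 85 cytosolic ones (1 called, the muscle paralog Rpl3l, 3 without +dox replicate 3, median -0.06) held more than 1 called gene. Among 10 creatine and adenylate kinase genes, Ckmt2 and Ak4 were called higher and Ckmt1 lower, the last at 1.25, 0.993 and 0.752 CPM and 0.501, 0.340 and 0.309 CPM, while the cytosolic muscle enzyme Ckm was at 1315, 1453 and 1196 CPM and 1567, 1535 and 1690 CPM.

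**Figure D3:**
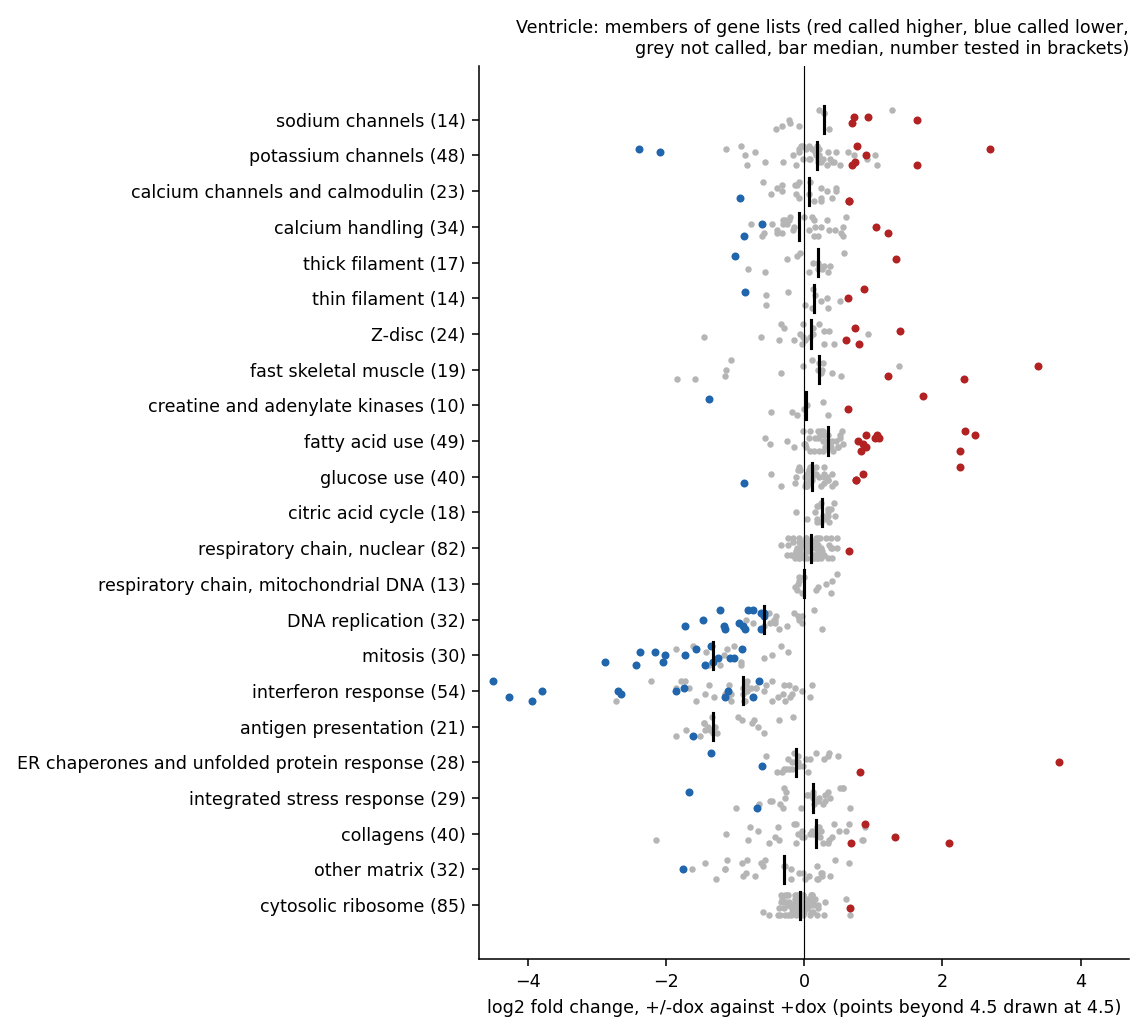
Log2 fold change in +/–dox against +dox ventricle (horizontal axis) of each tested member of 23 gene lists (rows), with called members in red or blue and list medians as black bars. DNA replication and mitosis genes lie mostly to the left of 0, with medians of -0.58 and -1.32, and fatty acid genes mostly to the right, with a median of 0.34.

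Cell cycle genes were lower after the repeats had been off for 12 weeks. Of 32 DNA replication genes, 14 were called lower and 0 higher (43.75%, beside 3.52% of all tested genes called lower), with a median of -0.58. Of 30 mitosis genes, 15 were called lower and 0 higher (50%, beside the same 3.52%). Their median was -1.32, and 30 of the 30 had a negative log2 fold change. The helicase subunit gene Mcm2 fell from 18.6, 19.2 and 13.4 CPM to 5.85, 6.03 and 6.71 CPM (log2 fold change -1.46 ± 0.18, adjusted p = 5.93e-07). The ribonucleotide reductase gene Rrm2 fell from 14.3, 9.00 and 5.16 CPM to 3.31, 2.65 and 2.65 CPM, and the leading-strand polymerase gene Pole from 8.54, 7.82 and 5.90 CPM to 3.40, 3.76 and 2.83 CPM. Mcm5, another helicase subunit gene, fell from 13.7, 11.2 and 7.57 CPM to 4.19, 4.56 and 5.20 CPM. In all 4 genes the cohorts did not overlap.

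Mitosis genes were low transcripts in either cohort. Ube2c, a ubiquitin-conjugating enzyme of the anaphase-promoting complex, fell from 9.47, 7.4 and 3.24 CPM to 0.881, 0.813 and 1.04 CPM (log2 fold change -2.88 ± 0.59, adjusted p = 8.79e-04). Cyclin B1, Ccnb1, fell from 4.66, 2.75 and 1.57 CPM to 0.607, 0.435 and 0.617 CPM, and topoisomerase Top2a from 15.9, 9.64 and 7.65 CPM to 3.52, 2.85 and 4.81 CPM, the latter close to the threshold (adjusted p = 0.0418). The proliferation marker Mki67 was at 20.2, 12.7 and 10.9 CPM and 7.44, 5.95 and 8.36 CPM and was not called (adjusted p = 0.143). Outside these lists, the G1/S cyclin gene Ccne1 fell from 10.3, 8.67 and 6.83 CPM to 1.56, 1.47 and 1.12 CPM (log2 fold change -2.63 ± 0.27, adjusted p = 2.54e-08). Cyclin D2, Ccnd2, an abundant transcript, fell from 419, 377 and 392 CPM to 122, 108 and 102 CPM (log2 fold change -1.84 ± 0.15, adjusted p = 2.82e-10). Mybl1 and the spindle gene Hmmr were among the 12 largest falls, at -2.59 and -2.81 on the log2 scale. The mitosis calls were fragile: 4 were left without +dox replicate 1, the library with the highest values, and 6, 5 and 9 without +/–dox replicates 1, 2 and 3. Replication calls fell to 10 without +dox replicate 1 (median -0.41) or +/–dox replicate 2, and to 12 without +/–dox replicate 1. Without +dox replicate 3, 16 replication and 16 mitosis genes were called lower, and 17 and 12 without both replicates 3. Macrophage, T cell and B cell marker lists held no called gene, and the T cell markers summed to 0.943, 0.948 and 2.93 CPM in +dox and 0.926, 1.80 and 1.85 CPM in +/–dox.

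Short motifs known from cell cycle promoters were searched in the start regions of these genes, and 2 regions are shown because both genes were called lower and hold a match. In 300-base windows around RefSeq start sites (GRCm38.p6), either strand, the E2F-type letters TTTCCCGC, TTTCGCGC, TTTGCCGC or TTTGGCGC were found in 12 of 31 windows of replication genes (38.7%), against 2.26% of all 32851 windows. Among replication genes called lower that have a window, 3 of 11 hold a match, beside 12 of all 27 listed genes with a window. The CHR letters TTTGAA were in 21 of 28 windows of mitosis genes, against 17.9% of all windows. They were in 7 of 13 called genes with a window, beside 19 of all 26 listed genes with a window. In neither list did called genes hold a match more often than listed genes did. In the windows below capitals mark the matched letters, which overlap each other in Mcm5; a match describes the letters only. Both are on the plus strand, Mcm5 at chr8:75109259-75109558 and Ube2c at chr2:164769679-164769978.
Mcm5: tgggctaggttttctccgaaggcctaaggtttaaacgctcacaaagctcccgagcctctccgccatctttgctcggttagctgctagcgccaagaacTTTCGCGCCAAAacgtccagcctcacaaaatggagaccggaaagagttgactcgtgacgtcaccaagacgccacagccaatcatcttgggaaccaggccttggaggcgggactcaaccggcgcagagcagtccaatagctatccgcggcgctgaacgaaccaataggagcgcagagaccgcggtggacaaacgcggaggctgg
Ube2c: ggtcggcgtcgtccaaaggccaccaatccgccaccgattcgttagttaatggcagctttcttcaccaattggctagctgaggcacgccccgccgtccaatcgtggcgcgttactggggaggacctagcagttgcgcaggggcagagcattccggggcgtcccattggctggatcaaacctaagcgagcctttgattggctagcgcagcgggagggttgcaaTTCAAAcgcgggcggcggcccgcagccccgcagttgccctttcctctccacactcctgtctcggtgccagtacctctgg

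Interferon response genes held some of the deepest falls, but the high values came mostly from 2 of the 3 +dox mice. Of 54 genes, 12 were called lower and 0 higher (22.2%, beside 3.52% of all tested genes called lower), with a median of -0.88. The cohorts did not overlap in 6 of the 54, whereas 38% of all tested genes showed no overlap. Their summed level was 1464, 412 and 4479 CPM in +dox and 426, 404 and 648 CPM in +/–dox, so that replicate 2 of +dox lay within the +/–dox range. In –dox the sums were 423, 579 and 408 CPM. The immunity-related GTPase gene Igtp was at 308, 15.9 and 1203 CPM in +dox and 10.1, 8.92 and 28 CPM in +/–dox (log2 fold change -5.02 ± 1.25, adjusted p = 0.00504). Iigp1, of the same family, was at 288, 11 and 1554 CPM and 15.7, 11.9 and 36.9 CPM. When +dox replicate 3 was left out, 2 of the list were called lower and the median was -0.40, and without both replicates 3 only 1 was called. Leaving out +dox replicate 2 gave 30 calls, and leaving out +/–dox replicate 1 or 2 gave 5 and 6. Immunity-related GTPase genes include near-identical copies in clusters, and Igtp and Irgm2 are annotated over each other on one strand, so single values within the family are uncertain.

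Antigen presentation genes were highest in the same libraries. B2m, the light chain of class I molecules, was at 345, 156 and 869 CPM and 116, 93.1 and 238 CPM and was the only one of 21 genes called (lower, adjusted p = 0.0397), although the list's median was -1.32. Without +dox replicate 3 the median was -0.44 and 0 genes were called (adjusted p of B2m 0.395). Also 0 were called without +dox replicate 1 or +/–dox replicate 1 or 2, and 8 without +dox replicate 2. The class II invariant chain gene Cd74 was at 155, 70.5 and 278 CPM and 57, 38.7 and 114 CPM and was not called. Apol9a, an interferon-induced gene with the largest fold fall among genes at 2 CPM or more, was at 1.22, 0.192 and 17.3 CPM and 0.0911, 0.113 and 0.0974 CPM, so that its fall rests largely on +dox replicate 3. The chemokine gene Ccl8 was at 6.88, 2.55 and 4.47 CPM and 0.866, 0.416 and 0.861 CPM.

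The interferon-stimulated response letters GAAANNGAAA, on either strand, were in 26 of 41 windows of listed interferon genes, against 3.44% of all windows. Among interferon genes called lower that have a window, 4 of 8 hold a match, beside 24 of all 36 listed genes with a window. The window of Igtp is shown, since it had the smallest adjusted p of the listed genes with a match; it lies on the plus strand at chr11:58199306-58199605, with the match in capitals.
Igtp: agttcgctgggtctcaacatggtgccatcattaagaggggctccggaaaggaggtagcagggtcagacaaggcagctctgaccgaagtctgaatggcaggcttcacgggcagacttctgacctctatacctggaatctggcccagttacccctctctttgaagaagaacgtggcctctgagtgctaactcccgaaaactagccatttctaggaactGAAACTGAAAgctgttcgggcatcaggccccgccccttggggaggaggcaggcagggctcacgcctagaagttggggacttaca

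**Figure D4:**
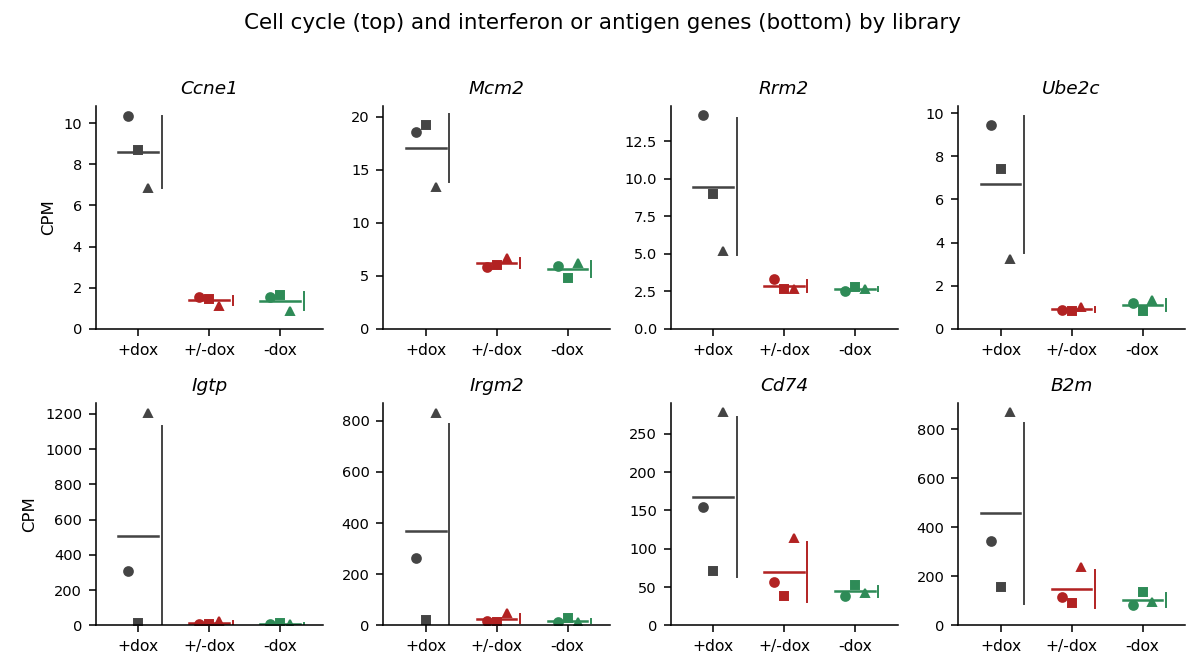
Level in CPM (vertical axes from 0) of 4 cell cycle genes (top) and 4 interferon or antigen genes (bottom) in the 3 libraries of +dox, +/–dox and –dox ventricle; circles, squares and triangles are replicates 1, 2 and 3, horizontal bars are means and vertical bars SD. Mcm2 lies apart in every +dox library, whereas Igtp is at 308, 15.9 and 1203 CPM in the 3 +dox libraries.

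Genes of stress programs moved in both directions. Of 28 endoplasmic reticulum chaperone and unfolded protein response genes, 2 were called higher (Cdnf and Herpud1) and 2 lower (Fkbp11 and Hspa13), with a median of -0.11. The called share was 14.3%, beside 6.6% of all tested genes. Without the fold cutoff, 5 higher and 8 lower members passed the adjusted p, against 10.6% and 11.1% of all tested genes. The degradation factor gene Herpud1 rose from 131, 141 and 143 CPM to 242, 272 and 210.3 CPM, while the chaperone Hspa5 (BiP) was at 522, 547 and 590.1 CPM and 484, 482 and 503 CPM and was not called. Without +dox replicate 3, 1 gene of the integrated stress response list was called higher and 4 lower. With all libraries, 2 of 29 were called lower and none higher, a share (6.90%) near the 6.6% of all tested genes. The 2 were the secreted stress factor Gdf15, at 3.09, 3.07 and 3.62 CPM and 1.02, 0.813 and 1.23 CPM (adjusted p = 0.00878), and Sesn2, at 9.57, 9.48 and 7.97 CPM and 6.01, 5.25 and 5.59 CPM. Their transcription factor Atf4 was at 73.6, 73.0 and 69.5 CPM and 74.3, 75.2 and 72.8 CPM. None of 22 heat shock genes was called by edgeR (8 at an unadjusted p below 0.05, 0 called by DESeq2, 4 higher and 2 lower by adjusted p alone), and 1 was called without +dox replicate 1. The glucocorticoid-responsive factor Klf15 was the only one of 17 atrophy genes called, rising from 38.7, 38.5 and 42.6 CPM to 59.5, 61.1 and 68.0 CPM, and 2 were called without +dox replicate 1, +dox replicate 3 or +/–dox replicate 3.

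Matrix, hormone and transcription factor genes were called one by one. Of 40 collagen genes, 4 were called higher (10%, beside 6.6% of all tested genes), all of them minor chains (Col7a1, Col11a2, Col6a6 and Col23a1). The counts depended on single libraries. Without +dox replicate 1, 1 was called higher and 1 lower. Higher calls numbered 2 without +/–dox replicate 1 and 1 without +/–dox replicate 2. The list's median was 0.16, and without +dox replicate 3 it was -0.06 with 2 higher and 1 lower calls. Tenascin C, Tnc, a matrix protein of injury and development, was the only one of 32 other matrix genes called, falling from 6.50, 2.73 and 1.58 CPM to 1.12, 1.04 and 1.06 CPM. Without +dox replicate 1, its highest library, 0 matrix genes were called lower and 1 higher, and without +dox replicate 3, 3 were called lower. In the natriuretic list 2 of 10 genes were called higher and 1 lower (30.0%, beside 6.6% of all tested genes). The processing protease Corin rose from 79.0, 95.7 and 113 CPM to 214, 185 and 167 CPM, the receptor Npr2 rose from 38.9, 39.7 and 36.7 CPM to 66.3, 66.5 and 64.3 CPM, and the clearance receptor Npr3 fell from 72.0, 59.0 and 41.2 CPM to 34.0, 30.8 and 29.2 CPM. The hormone gene Nppa overlapped (170.3, 99.7 and 51.3 CPM and 217, 108 and 129 CPM). Among 30 cardiac transcription factor genes, Cited1 fell from 1.74, 1.87 and 1.54 CPM to 0.182, 0.132 and 0.309 CPM (log2 fold change -3.02 ± 0.47), and Cited2, Tbx2 and Nr2f1 were called higher. Without +dox replicate 1 this list had 2 calls, and without +/–dox replicate 3 1. The alpha-1A adrenergic receptor gene Adra1a rose from 11.3, 13 and 9.95 CPM to 28.7, 27.4 and 16.0 CPM, one of 2 higher and 2 lower calls in 30 adrenergic and protein kinase A genes. At the intercalated disc, plakoglobin Jup was called higher and Cxadr and Pkp4 lower, out of 20 genes (15%, beside 6.6% of all tested genes). The remaining lists added 1 call each: Sntb1 (lower) of 22 dystrophin complex genes, Npas2 (lower) of 19 clock genes, and the receptor Tgfbr3 (higher) beside Gdf15 of 38 TGF-beta family genes. The called shares of these lists, 4.55%, 5.26% and 5.26%, were below the 6.6% of all tested genes. Leaving out single libraries moved these counts to 2 (dystrophin complex, without +dox replicate 3 or +/–dox replicate 2), to 0 and 2 (clock, without +/–dox replicate 1 and replicate 3) and to 4 (TGF-beta family, without +dox replicate 1 or 2 or +/–dox replicate 3, against 2).

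Few cell type markers were called with the fold cutoff. Without it, 5 of 7 endothelial, 3 of 5 mural, 4 of 6 cardiomyocyte and 2 of 6 fibroblast markers were higher by adjusted p. In these lists 0 were lower, and 10.6% of all tested genes were higher by that measure. In 13 marker lists the only called genes were Tnnt2 among cardiomyocyte markers and the Schwann cell factor Sox10 among nerve markers (0.284, 0.519 and 0.752 CPM and 1.32, 1.49 and 0.715 CPM, with overlap). The endothelial list summed to 637, 645 and 610.1 CPM in +dox and 818, 803 and 814 CPM in +/–dox, and the mural list to 492, 540.2 and 533 CPM and 613, 609 and 651 CPM, with no overlap in either. Haemoglobin genes with Alas2 summed to 464, 156 and 469 CPM and 1067, 982 and 1136 CPM, again without overlap, although none of the 5 was called. The part of blood and vessel content in the differences above was not tested. Macrophage markers summed to 196, 161 and 219.9 CPM and 167, 173 and 205 CPM. Cardiomyocyte markers summed to 54294, 54588 and 50328 CPM and 64579, 65518 and 62389.9 CPM.

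The –dox ventricles, from mice that never made the repeat RNA through dox, served as a reference for the level after withdrawal. Values are given side by side, since both comparisons share the +dox libraries. Genes called higher in +/–dox had a median log2 fold change of 0.81 against +dox, and the same genes had a median of 0.74 in –dox against +dox. For genes called lower the medians were -1.0 and -0.94. Cdnf was at 39.1, 37.0 and 30.6 CPM in –dox, Ryr2 at 2175, 2401 and 2027 CPM and Kcna4 at 1.12, 1.72 and 2.23 CPM, each within or next to the range of the +/–dox values above. Against +dox, 1461 genes were called in –dox (7.6%). Compared directly, –dox and +/–dox ventricle differed in 6 genes (0.0312% of those tested), while 1586 had an unadjusted p below 0.05.

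Of these 6 genes, Syn2, Aass and Lad1 lay in +/–dox between the other cohorts. Syn2, synapsin II, was at 52.8, 54.9 and 52.6 CPM in +dox, 21.3, 15.6 and 12.4 CPM in +/–dox and 5.08, 6.99 and 3.73 CPM in –dox (log2 fold change of –dox against +/–dox -1.64, adjusted p = 0.00482). Aass, a lysine-degrading enzyme, was at 23.4, 29.5 and 35.8 CPM, 16.8, 12.5 and 6.69 CPM and 5.17, 2.80 and 2.23 CPM. The anchoring filament gene Lad1 (ladinin) was at 1.01, 1.83 and 1.57 CPM, 3.17, 3.87 and 4.27 CPM and 11.8, 9.79 and 9.13 CPM, and Pdlim4 at 12.6, 13.3 and 10.4 CPM, 12.0, 13.2 and 12.5 CPM and 9.09, 8.2 and 7.75 CPM. The other two were predicted genes with identical rows, Gm10240 and Gm13370, which were listed at 0 in all 3 +/–dox libraries and at 5.08, 3.23 and 14.1 CPM in +dox and 7, 5.34 and 12.1 CPM in –dox. Leaving out +/–dox replicate 2 or 3 left 3 and 2 calls, and leaving out –dox replicate 2 left 1.

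The atria of the same cohorts were compared in the same way to show where the ventricle differs. In atria 767 genes were called in +/–dox against +dox (3.99% of those tested). The lists shared 312 genes, which is 24.6% of the ventricular and 40.7% of the atrial list, but both tissues of a cohort came from the same 3 mice, so the lists are not independent. Cdnf, Coq8a, Ckmt2 and Vxn had atrial log2 fold changes of 3.30, 2.52, 1.64 and -2.63, close to the ventricular ones. A test of the difference itself, ventricular minus atrial change, called 94 genes (0.489%). When the mouse was a block, so that the tissues were compared within each animal, 276 genes were called, 89 of the 94 among them. All 16 genes of the difference named here were called with the block as well. They had already been called with these same libraries, so this is not independent support. Of the 94 genes, 54 were called in the ventricle, 18 higher and 36 lower. Another 26 were called in atria but not in the ventricle, and 14 in neither. In 53 of the 54 the ventricular change was the larger in size, which their selection by a ventricular call favours.

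Excitability and cell cycle genes were among those whose change differed between the tissues. Kcna4 changed by -2.39 in ventricle and -0.61 in atria, with a difference of -1.78 ± 0.24 (SE, adjusted p = 1.96e-04, edgeR). Kcnv2 rose in both, with log2 fold changes of 2.68 and 0.98 (adjusted p of the difference = 0.0212). Igfbpl1 fell by more in the ventricle (-3.38 and -0.95), and Acot7 rose by more (1.81 and 0.76). The enolase gene Eno1b was called higher in the ventricle, at 0.78 against -0.17 in atria (adjusted p of the difference = 2.59e-04). Mcm2, Mcm7, Rrm1 and the condensin gene Smc4 had log2 fold changes of -1.46, -0.88, -0.62 and -0.65 in ventricle, where all were called lower, and in atria -0.22, 0.22, 0.07 and 0.20. Gja5 had 0.25 in ventricle and 1.72 in atria (adjusted p of the difference = 0.0203).

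**Figure D5:**
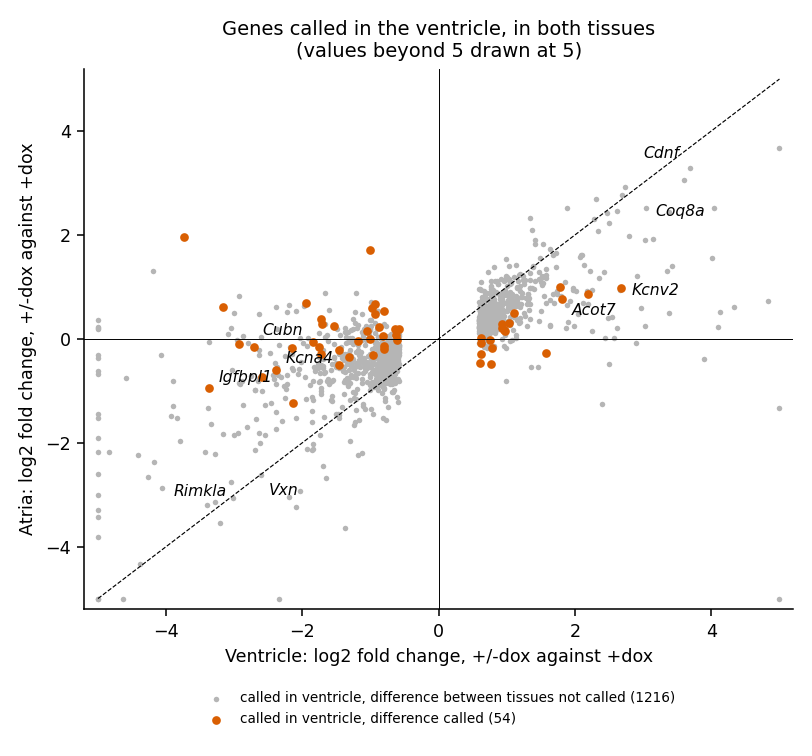
Log2 fold change in +/–dox against +dox in atria (vertical axis) against the ventricle (horizontal axis) for the 1270 genes called in the ventricle; orange points are the 54 whose difference between tissues was called, and the dashed line marks equal change. In 53 of these the ventricular change is the larger in size, as for Igfbpl1 at -3.38 and -0.95. Genes called only in atria are not drawn, so the selection favours a larger ventricular change.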

How the data were processed

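RNA from left ventricle and atria was sequenced as strand-specific mRNA libraries. Per the labels and the study's methods, the authors aligned reads to mm10 with STAR 2.7.10b and deposited RSEM 1.3.1 expected counts and TPM per gene symbol, without pooling replicates. Of 55291 symbols, 53292 matched a GRCm38 annotation, which gave coordinates.

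Expected counts were rounded, filtered with filterByExpr, scaled by TMM and fitted with edgeR 4.0.16 (robust quasi-likelihood, 12 group means, 36 libraries, 24 residual degrees of freedom), a procedure tested on simulated counts. P-values were Benjamini-Hochberg adjusted over all tested genes. CPM are on the TMM scale, and SE is that of the log2 fold change. Errors written with ± are SE for fold changes and SD for levels. The libraries of a cohort are labelled as separate samples, and each was taken as 1 mouse. The study lists both tissues of a cohort from the same animals. Same-numbered ventricle and atria libraries of a cohort deviated together (correlation 0.40 to 0.64, each highest for its own number), so the number was used as the mouse in a blocked fit of the tissue difference. Replicates of a cohort correlated at 0.992 to 0.997 (Pearson, log10 TPM). With 3 libraries against 3 the exact permutation test, used for shares of TPM, cannot go below p = 0.1. Reads from genes on opposite strands are kept apart by the library type if the counting used strand, which is not given in the sources used here.

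Members and gene lists were chosen with earlier results of these data known. Named genes were the study's expression genes with Mbnl1, Mbnl2, Mbnl3 and Dmpk, the 12 largest rises and falls at 2 CPM or more without overlap between cohorts, the 10 called genes with the smallest adjusted p, the 10 with the highest TPM, up to 4 called and up to 4 abundant members per list, up to 10 genes of the tissue difference, and the genes called between –dox and +/–dox. Outside this rule, Abcc8, Acad11, Acot2, Ccnd2, Dstn, Fdps, Idi1, Iigp1, Kcna7, Kcnip2, Kcnk2, Lss, Mlxipl, Mlycd, Plekha7, Plin4, Pnpla2, Shmt1, Slc27a1, Srebf1 were chosen after their values were seen. Motifs were read from RefSeq windows of 300 bases. DESeq2 1.42.0, limma 3.58.1 and the other alternatives named in the closing section were tried. Leaving out both replicates 3, the block for the mouse and its fit to 12 libraries without a block were chosen after seeing the data. The 18 libraries of AAV-treated cohorts entered the fit but no comparison, and the –dox atria were not compared. Some genes that the rule would name are not reported here.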

Additional observations from a re-analysis of the deposited data

Results flagged for a closer look

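The change in +/–dox against +dox differed between ventricle and atria in 94 genes by edgeR's test of the difference itself. Values here are ventricular minus atrial log2 fold changes. Genes whose value was above 0 included Kcnv2 (1.70), Sbk2 (1.31), Acot7 (1.04) and Eno1b (0.95). Deeper ventricular falls were seen for Cubn (-2.55), Igfbpl1 (-2.43), Plekha7 (-1.97), Mybl1 (-1.86), Kcna4 (-1.78), Dstn (-0.89) and the cell cycle genes Mcm2 (-1.24), Mcm7 (-1.10), Smc4 (-0.84) and Rrm1 (-0.69). Gja5 (-1.47) and Pln (-0.65) were not called in the ventricle and had atrial changes of 1.72 and 0.71. Every cohort had 3 libraries, too few for a search for single outlying samples.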

How the results depend on the processing

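The ventricular count of 1270 called genes stayed between 1025 and 1425 under size factors by RLE, no filter on low counts, fits to 18 or 6 libraries, the library series as a term and DESeq2, and was 1840 with limma voom. It was 4187 without the fold cutoff and 162 when the fold of 1.5 was tested (glmTreat), and leaving out 1 library gave 1013 to 1306. Without both replicates 3, 1051 genes were called, 821 of them in common. Deviations of libraries with the same number correlated at 0.05, 0.34 and 0.35, and +dox replicate 1 correlated best with +/–dox replicate 2, so the numbers were not treated as pairs. With the replicate block in a fit to the 6 libraries compared, 1113 ventricular genes were called (1186 in that fit without the block), 1013 atrial genes (886), 48 between –dox and +/–dox (2), and 820 between –dox and +dox (1117). In the tissue difference the block within tissue gave 96 calls, 54 of them in common, the block for the mouse 276, and the same 12 libraries without a block 100. The atrial count (767) was 2426 without the fold cutoff, 87 with glmTreat, and 486 (without +dox replicate 1) to 796 with 1 library left out. The tissue difference (94) was 200 with DESeq2, 3 with glmTreat, and 37 to 98 with 1 library left out, with the lowest count without atrial +dox replicate 2. It also moved by over 1.5 times without +dox replicate 1 or +/–dox replicate 1 or 2 of either tissue, and without atrial +/–dox replicate 3. The –dox against +/–dox count (6) was 11 without the fold cutoff, 3 with RLE and with no filter, 0 with glmTreat and with the 18 ventricular libraries alone, 2 with the 6 compared, 23 with DESeq2, and 1 to 8 with 1 library left out. The –dox against +dox count was 4021 without the fold cutoff, 233 with glmTreat and 1097 to 1470 with 1 library left out. The mitochondrial DNA share, lower in +/–dox by TPM, was higher by 0.347 percentage points by counts. Of 122 called genes named here, 0 turned sign under any alternative and 82 missed a threshold under at least 1: 80 with glmTreat, 23, 8 and 18 without +dox replicates 1, 2 and 3, and 16, 18 and 9 without +/–dox replicates 1, 2 and 3. Genes that were not called and turned sign were Casq1 (-0.33 without both replicates 3, -0.28 to 0.75 with 1 library left out), Dmpk (-0.043, -0.013 with voom, -0.056 to 0.12), Gja5 (-0.0091, -0.040 to 0.39) and Pdlim4 (-0.039, -0.0078 with voom, -0.043 to 0.13). The causes of these shifts were not tested, except that a test against a fold is stricter by construction.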

Other observations

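Several single genes outside the lists were also called, and the ones given here were chosen after their values were seen. Lanosterol synthase Lss fell from 6.88, 8.06 and 6.68 CPM in +dox to 2.7, 3.19 and 3.33 CPM in +/–dox (log2 fold change -1.23 ± 0.16, adjusted p = 1.68e-06, edgeR). Isopentenyl diphosphate isomerase Idi1 fell from 16.0, 16.2 and 17.5 CPM to 10.3, 7.69 and 9.42 CPM, and farnesyl diphosphate synthase Fdps from 24.1, 26.0 and 20.2 CPM to 14.1, 14 and 17.6 CPM. In all 3 the cohorts did not overlap. The lipogenic transcription factor genes Srebf1 and Mlxipl rose, from 22.5, 25.3 and 17.9 CPM to 38.7, 35.1 and 37.5 CPM and from 9.80, 10.3 and 13 CPM to 23.5, 28.2 and 27.8 CPM.

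The cytosolic serine hydroxymethyltransferase gene Shmt1, of one-carbon metabolism, fell from 39.5, 41.7 and 41.3 CPM to 13.2, 10.2 and 10.5 CPM (log2 fold change -1.85 ± 0.19, adjusted p = 7.43e-08) and had an atrial log2 fold change of -1.60. The junction gene Plekha7 fell from 17.5, 18.2 and 18.9 CPM to 3.98, 3.08 and 5.18 CPM in ventricle, with an atrial log2 fold change of -0.18.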
